A study of Homo sapiens with 6 samples.

Results

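The 42 genes described here encode the ligands, receptors, antagonists and intracellular parts of the Wnt and beta-catenin pathway, together with BTRC, an F-box protein that marks beta-catenin for destruction. They were chosen by name, with earlier results of these data known. All 42 had transcripts in the deposited tables, which covered 35580 genes in all. Messenger RNA was sequenced from Rh30, an alveolar rhabdomyosarcoma cell line positive for the PAX3-FOXO1 fusion, as 3 control libraries and 3 libraries with DDX5 knocked down (labelled siDDX5). All 6 libraries share the line and its fusion, so 1 tumour line stands behind every value. DDX5 encodes a DEAD-box RNA helicase that has been described as a beta-catenin cofactor, and the comparison asks which pathway genes differed in level between siDDX5 and control cells. The sources used here give neither the knockdown reagent, nor the content of the control, nor the time of harvest.

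Wnt ligands need the acyltransferase PORCN and the carrier WLS to be secreted. They bind Frizzled receptors with LRP5 or LRP6, and Dishevelled proteins pass the signal on. Without a signal, a complex of AXIN, APC, casein kinase 1 and GSK3 phosphorylates beta-catenin, and the F-box proteins BTRC and FBXW11 bring the phosphorylated protein to the SCF ubiquitin ligase. With a signal, beta-catenin builds up and acts with the TCF and LEF factors on target genes such as AXIN2. In muscle the pathway is known for its part in the specification of early muscle cells and in their differentiation.

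Depth ran from 18202402 to 26156858 estimated counts per library, and all 3 siDDX5 libraries were less deep than the shallowest control. Whether depth had a part in the results was not tested. A floor of 3 counts corresponded to 0.115 to 0.165 CPM, that is, counts scaled to a common library total. The labels call the 3 libraries of a group biological replicates. Deviations of same-numbered libraries from their group means correlated, most strongly for replicate 3. The replicate 3 libraries of both groups also stood apart from the rest on the first principal component. Pairing by replicate number is thus assumed. Rhabdomyosarcoma and myoblast markers summed to 1214 to 1529 TPM (transcript abundance scaled for length and to a common total) in control and 1153 to 1242 TPM in siDDX5 libraries, with 9 of 10 above a mean of 1 TPM and TFAP2B at 0 in all. The 5 epithelial markers summed to at most 2.50 TPM with KRT19 at 0 in all libraries, the 4 leukocyte markers to at most 3.61 TPM, the 4 endothelial markers to at most 7.44 TPM and the 5 fibroblast markers to 38.1 to 60.4 TPM. DDX5 itself stood at 1352, 1434 and 1137 CPM in control replicates 1, 2 and 3 and at 549.5, 504.5 and 395.9 CPM in siDDX5 replicates 1, 2 and 3. DDX5 was thus lower in all 3 siDDX5 libraries, with a log2 fold change of -1.44 and a standard error of 0.15 (adjusted p = 0.0106 by edgeR's quasi-likelihood F test, with the Benjamini-Hochberg method over all genes tested). Without control replicate 1, siDDX5 replicate 1 or siDDX5 replicate 2 it did not pass (adjusted p = 0.0954, 0.0652 and 0.0530).

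Levels are compared between genes in TPM, which is scaled for transcript length. By the mean of the 6 libraries, CTNNB1, the gene of beta-catenin, ranked first of the 42 at 194 TPM and CSNK1A1, the casein kinase that primes beta-catenin for GSK3, ranked second at 182 TPM. Their library values overlapped, 179 to 203 TPM for CTNNB1 and 171 to 199 TPM for CSNK1A1. WLS followed at 65.0 TPM and FBXW11 at 62.7 TPM, and these also overlapped. GSK3B (44.2 TPM), DVL3 (42.4), LGR4 (41.6) and GSK3A (39.3) came next by mean level. The middle of the order, from DKK1 at a mean of 38.0 TPM to WNT5A at 11.7 TPM, held 17 genes, BTRC among them at rank 19 with 18.1 TPM. Of the 41 neighbouring pairs in the order of mean TPM, 38 overlapped in their library values. The 3 steps without overlap were those below CSNK1A1, below FBXW11 and below FZD8.

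**Figure D1:**
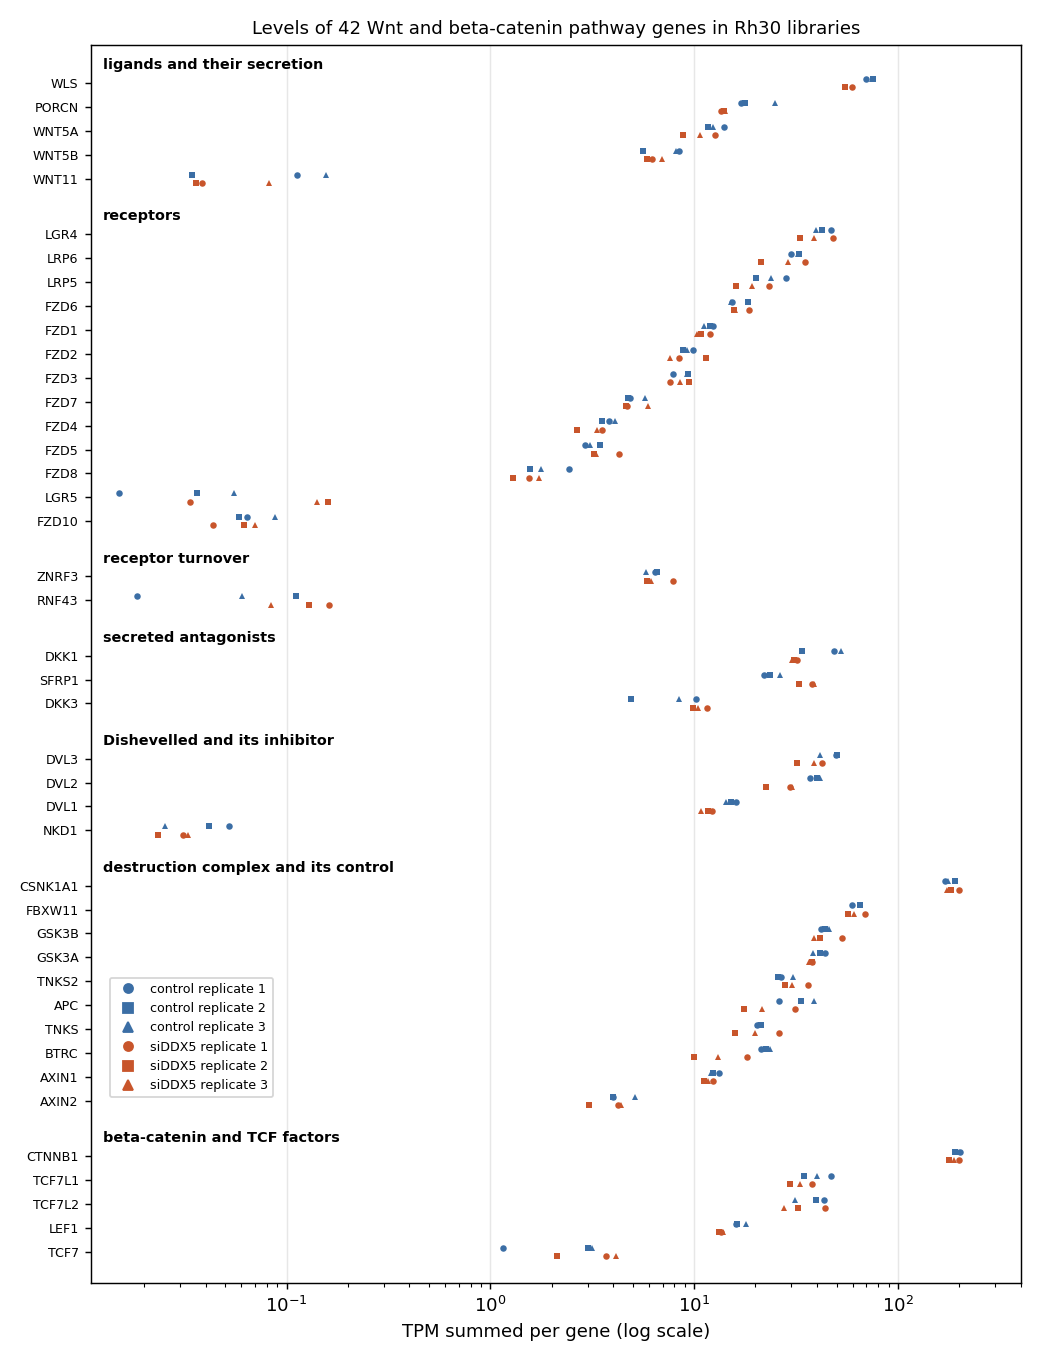
TPM of the 42 genes in each of the 6 libraries, grouped by role (horizontal axis: summed TPM per gene on a log scale; blue: control; orange: siDDX5; circle, square and triangle: replicates 1, 2 and 3). CTNNB1 and CSNK1A1 lie highest, and 5 genes lie below 0.2 TPM in every library.

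Of the Wnt ligands among the 42, WNT5A and WNT5B, known mainly for signals that bypass beta-catenin, were at 11.7 and 6.87 TPM by mean level, and WNT11 was near the floor. Of the ligands outside the 42, WNT9A and WNT3 had similar mean levels, 11.3 and 7.99 TPM. Among the Frizzled receptors, FZD6 had the highest mean level (16.5 TPM), followed by FZD1 (11.5 TPM) and FZD2 (9.23 TPM), and FZD8 had the lowest of those tested (1.72 TPM). The 9 Frizzled genes together summed to 59.6, 61.9 and 59.8 TPM in control replicates 1, 2 and 3 and to 60.6, 59.2 and 56.7 TPM in the siDDX5 replicates. FZD6 was the highest Frizzled gene in all 6 libraries. The co-receptors LRP6 and LRP5 had mean levels of 30.04 and 21.8 TPM.

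WNT11, FZD10, the R-spondin receptor LGR5, the receptor ubiquitin ligase RNF43 and the Dishevelled inhibitor NKD1 did not pass the filter on low counts. None of these 5 was above 0.161 TPM or 18.02 estimated counts in any library. In the edgeR fit without the filter, which tested all 42 genes, none of these 5 passed. LGR5 and RNF43 each have a relative that was measured well. LGR4 was at 47.1, 42.5 and 39.7 TPM in control and 48.2, 33.0 and 38.9 TPM in siDDX5 replicates 1, 2 and 3. ZNRF3, a membrane ubiquitin ligase that removes Frizzled receptors, was at 6.44, 6.57 and 5.80 TPM in control and 7.83, 5.85 and 6.15 TPM in siDDX5 cells. The groups overlapped for both.

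Against this background of levels, BTRC was lower in siDDX5 cells, and it was the only one of the 37 genes tested that passed an adjusted p of 0.05 in edgeR's quasi-likelihood test with the group as the only term. With the replicate number as a block, and likewise in the DESeq2 Wald test without it, 3 passed: BTRC and DVL2, a Dishevelled protein, were lower, and SFRP1, a secreted protein that binds Wnt ligands, was higher. Without the filter on low counts, BTRC and SFRP1 passed in edgeR. CTNNB1, AXIN2 and the BTRC paralogue FBXW11 had log2 fold changes between -0.03 and 0.04. Over all 15223 genes tested, 25 passed (0.164%) without the block and 395 (2.59%) with it. The DESeq2 Wald test called 323 of the 15223 genes, and edgeR without the filter called 136 of 24618. Without 1 library, 0 to 15 of all genes and 0 of the 37 passed in edgeR. At an unadjusted p under 0.05, 2 of the 37 were higher and 7 lower (24.3%), where 1732 of all genes (11.4%) passed that mark. With the block 3 were higher and 10 lower (35.1%), where 3127 of all genes (20.5%) passed. The 3 siDDX5 libraries lay above all control libraries for 3 of the 37 genes and below them for 8 (29.7%), where 2753 of all genes (18.1%) did not overlap. The median log2 fold change of the 37 was -0.06, with 15 above 0 and 22 below it, beside a median of -0.001 over all genes tested.

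**Figure D2:**
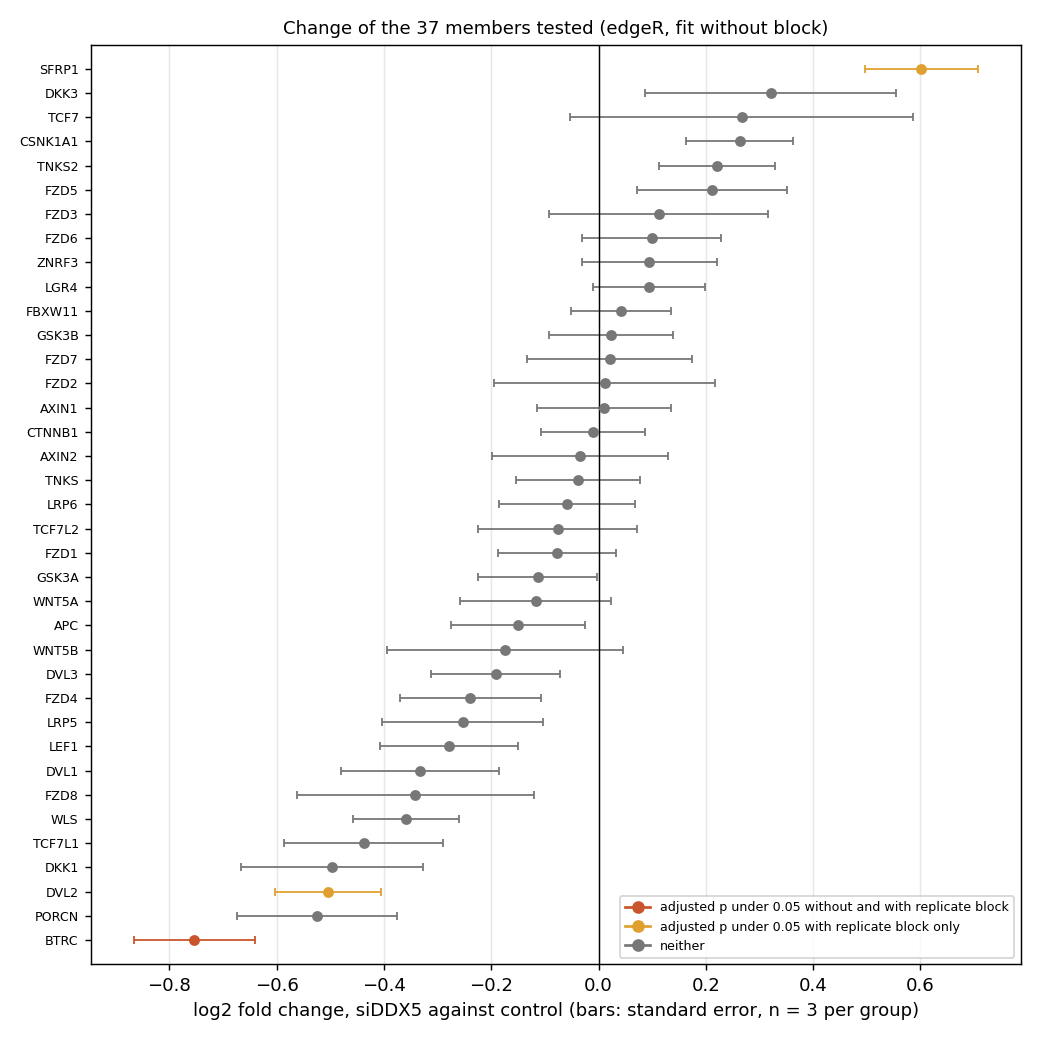
Log2 fold change of siDDX5 against control for the 37 genes tested, with its standard error (edgeR, without the replicate block, n = 3 per group; values above 0 are higher in siDDX5 cells). BTRC at -0.75 lies lowest and SFRP1 at 0.60 highest.

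BTRC (ENSG00000166167.17, chr10:101354033-101557321 of GRCh38, plus strand) stood at 58.5, 59.5 and 59.4 normalised CPM in control replicates 1, 2 and 3 and 37.2, 30.8 and 37.2 CPM in siDDX5 replicates 1, 2 and 3. The control libraries lay close together, and every siDDX5 library was far below them. The means were 59.1 ± 0.55 CPM (SD, n = 3) and 35.1 ± 3.73 CPM (SD, n = 3), a log2 fold change of -0.75 with a standard error of 0.11, or a level 1.69-fold lower (adjusted p = 0.0422 in edgeR's quasi-likelihood test). In TPM, the control replicates had 21.4, 22.5 and 23.6 and the siDDX5 replicates 18.1, 9.96 and 13.1, so the groups were also separate on that scale, with a wider spread in siDDX5 cells. BTRC ranked 24 of 15223 genes by p, among 25 that passed, so it stood near the threshold. Its estimate moved little when any 1 library was left out (-0.80 to -0.67), but it then no longer passed in any of the 6 cases (adjusted p = 0.0983 to 0.219). Fewer cells expressing BTRC and less BTRC RNA per cell cannot be told apart in bulk libraries. BTRC also did not pass with limma-trend on log2(TPM + 1) (-0.71, adjusted p = 0.435) or log2(TPM + 0.1) (-0.75, adjusted p = 0.442).

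The tables held 7 transcripts of BTRC, and 2 of them carried most of its counts. ENST00000370187, the more abundant in every control library but not in siDDX5 replicates 1 and 2, contains exon 2, which is absent from ENST00000408038, so that the encoded proteins have 605 and 569 residues. Exon 2 is 108 bases long, codes for 36 residues and lies at chr10:101430345-101430452 of GRCh38 on the plus strand. It is shown because it is the coding difference between these forms, in capitals between 12 bases of the flanking exons:
BTRC exon 2: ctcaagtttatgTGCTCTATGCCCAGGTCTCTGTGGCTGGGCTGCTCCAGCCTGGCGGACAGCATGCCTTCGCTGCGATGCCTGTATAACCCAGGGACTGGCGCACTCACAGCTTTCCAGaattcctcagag

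The form with exon 2, ENST00000370187.8, had 28.92, 36.67 and 30.03 CPM in control replicates 1, 2 and 3 and 14.30, 11.67 and 19.76 CPM in the siDDX5 replicates. The form without it, ENST00000408038.6, had 24.83, 20.74 and 25.81 CPM in control and 18.03, 15.39 and 16.69 CPM in siDDX5 cells. The groups were separate for both forms. Tested singly, the first had a log2 fold change of -1.01 (adjusted p = 0.368) and the second of -0.46 (adjusted p = 0.658, edgeR), so neither passed. In that test 0 of all 61169 transcripts passed. The form with exon 2 made up 50.1, 60.3 and 50.4% of BTRC counts in control and 37.8, 39.5 and 52.9% in siDDX5 libraries, which overlapped. The usage test of edgeR, which asks whether the shares of a gene's transcripts differ, gave BTRC an unadjusted p of 0.875.

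FBXW11 (chr5:171861549-172006873 of GRCh38, minus strand), which can also deliver beta-catenin to the SCF ligase, was at 99.9, 106 and 101 CPM in control and 108, 104 and 104 CPM in siDDX5 replicates 1, 2 and 3. The groups overlapped, with a log2 fold change of 0.04 and a standard error of 0.09 (adjusted p = 0.903, edgeR). FBXW11 was the more abundant of the pair. BTRC made up 26.51, 25.57 and 26.65% of their summed TPM in control replicates 1, 2 and 3 and 20.74, 14.90 and 17.78% in the siDDX5 replicates. The means were 26.2 ± 0.59% and 17.8 ± 2.92% (SD, n = 3), with an exact two-sided permutation p of 0.1, the smallest that 3 against 3 libraries can give.

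**Figure D3:**
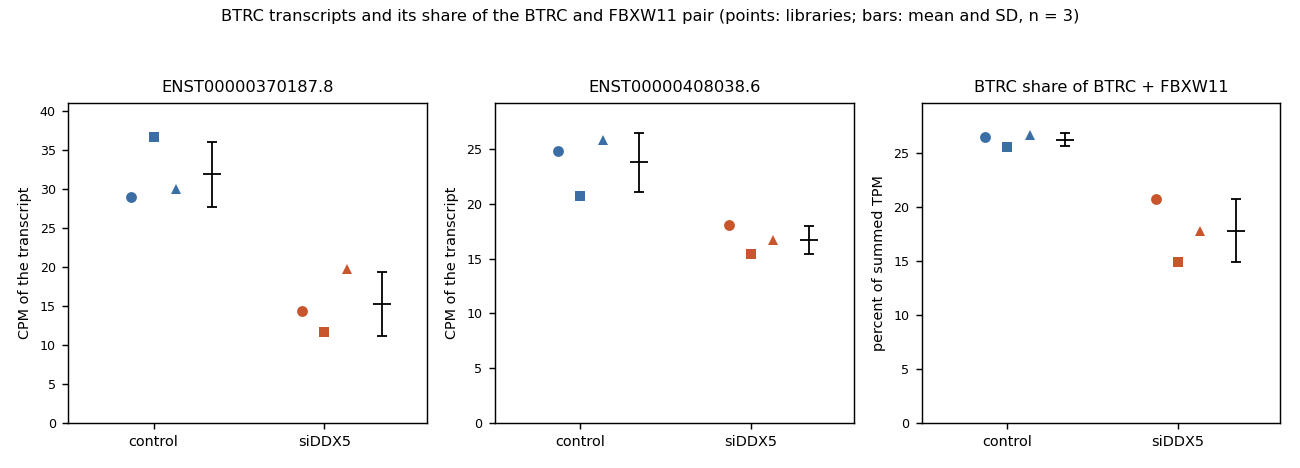
CPM of the 2 most abundant BTRC transcripts and the BTRC share of the summed TPM of BTRC and FBXW11 (percent), by library (points; circle, square and triangle: replicates 1, 2 and 3), with the mean and SD of each group. In all 3 panels every siDDX5 library lies below every control library.

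The genes are paralogues, and reads that match both would be divided by the quantifier. Over 1623 aligned coding bases BTRC and FBXW11 were identical at 1242 (76.5%), and over 542 aligned residues at 458 (84.5%). Their longest shared coding run was 32 bases. It is shown, in capitals with 15 bases on each side, as the place where reads of the pair are hardest to tell apart:
BTRC: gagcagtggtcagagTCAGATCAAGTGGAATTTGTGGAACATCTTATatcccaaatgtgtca
FBXW11: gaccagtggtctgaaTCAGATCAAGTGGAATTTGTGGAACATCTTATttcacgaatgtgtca
Of 6693 different 31-base words in BTRC transcripts, 2 (0.03%) also occurred in FBXW11 transcripts.

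The rest of the destruction complex showed small differences. CSNK1A1 was at 185, 193 and 203 CPM in control and 221, 247 and 229 CPM in siDDX5 replicates 1, 2 and 3. Every siDDX5 library was above every control library in CPM, although not in TPM, and the log2 fold change of 0.26 (standard error 0.10) did not pass (adjusted p = 0.356, edgeR). In both limma-trend fits on TPM its log2 fold change was 0.049. TNKS2, a tankyrase that promotes the turnover of AXIN, was at 86.7, 83.4 and 97.3 CPM in control and 112, 100 and 99.1 CPM in siDDX5 cells (log2 fold change 0.22, adjusted p = 0.480), separate in CPM but not in TPM. AXIN2, both a part of the complex and a common readout of beta-catenin activity, was at 8.53, 8.28 and 10.6 CPM in control and 8.58, 8.50 and 9.66 CPM in siDDX5 cells. Its groups overlapped, and the log2 fold change was -0.03 (standard error 0.16) (adjusted p = 0.962). The scaffolds AXIN1 and APC had mean levels of 12.2 and 28.1 TPM, and the tankyrase TNKS of 20.7 TPM, with overlapping groups.

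Among the secreted antagonists, SFRP1 (ENSG00000104332.11) was at 60.2, 63.0 and 69.9 CPM in control replicates 1, 2 and 3 and at 98.0, 92.0 and 103 CPM in siDDX5 replicates 1, 2 and 3. Every siDDX5 library was above every control library, in CPM and in TPM. The means were 64.4 ± 4.96 and 97.7 ± 5.55 CPM (SD, n = 3), a level 1.52-fold higher with a log2 fold change of 0.60 and a standard error of 0.11. Its adjusted p was 0.0668 in edgeR without the block, 0.0104 with it and 0.000156 in the DESeq2 Wald test. DKK1, which blocks LRP5 and LRP6, had 18.8, 14.9 and 20.5 CPM in control and 11.5, 15.1 and 11.9 CPM in siDDX5 cells. Its groups overlapped in CPM, although in TPM every siDDX5 library was below every control library. The log2 fold change of -0.50 (standard error 0.17) did not pass (adjusted p = 0.309). DKK3 was at 12.2, 6.43 and 9.32 CPM in control and 12.6, 12.9 and 9.57 CPM in siDDX5 libraries, which overlapped. SFRP1 made up 27.2, 37.7 and 30.3% of the summed TPM of these 3 genes in control and 46.5, 44.3 and 48.8% in siDDX5 replicates 1, 2 and 3. The exact two-sided permutation p was 0.1, the smallest that 3 against 3 libraries can give. By TPM, DKK1 was the most abundant of the 3 in all 3 control libraries, and SFRP1 in all 3 siDDX5 libraries.

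All 3 Dishevelled genes had lower mean levels in siDDX5 cells. DVL2 (ENSG00000004975.11, chr17:7225341-7234545 of GRCh38, minus strand) was at 56.8, 54.2 and 55.7 CPM in control and 38.6, 38.1 and 40.8 CPM in siDDX5 replicates 1, 2 and 3. The replicates of each group lay close together and the groups were well apart. The means were 55.5 ± 1.301 and 39.2 ± 1.424 CPM (SD, n = 3), a log2 fold change of -0.51 with a standard error of 0.10. Its adjusted p was 0.0796 in edgeR without the block, 0.0187 with it and 0.00269 in the DESeq2 Wald test. DVL1 was at 33.4, 26.8 and 26.2 CPM in control and 23.6, 25.2 and 19.8 CPM in siDDX5 cells, also without overlap (log2 fold change -0.33, adjusted p = 0.434), and its log2 fold change was -0.206 without control replicate 1. DVL3, the most abundant of the 3 by mean TPM, was at 146, 137 and 117 CPM in control and 129, 109 and 112 CPM in siDDX5 cells, and its groups overlapped. Summed over the 3 genes, the level was 102.9, 105.6 and 97.4 TPM in control and 84.4, 66.3 and 79.7 TPM in siDDX5 replicates 1, 2 and 3. DVL2 made up 36.18, 38.14 and 42.81% of this sum in control and 35.1, 33.85 and 37.8% in siDDX5 replicates. These shares overlapped between groups (exact two-sided permutation p = 0.2).

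Both genes needed for ligand secretion had lower levels in every siDDX5 library without passing the test. WLS was at 96.9, 98.4 and 102 CPM in control and 73.2, 82.1 and 76.8 CPM in siDDX5 replicates 1, 2 and 3 (log2 fold change -0.36, standard error 0.10, adjusted p = 0.225 in edgeR). PORCN was at 21.2, 21.1 and 28.0 CPM in control and 15.4, 17.5 and 16.0 CPM in siDDX5 cells (log2 fold change -0.53, standard error 0.15, adjusted p = 0.236). The log2 fold change of PORCN was -0.375 without control replicate 3. WNT5A and WNT5B overlapped between groups.

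**Figure D4:**
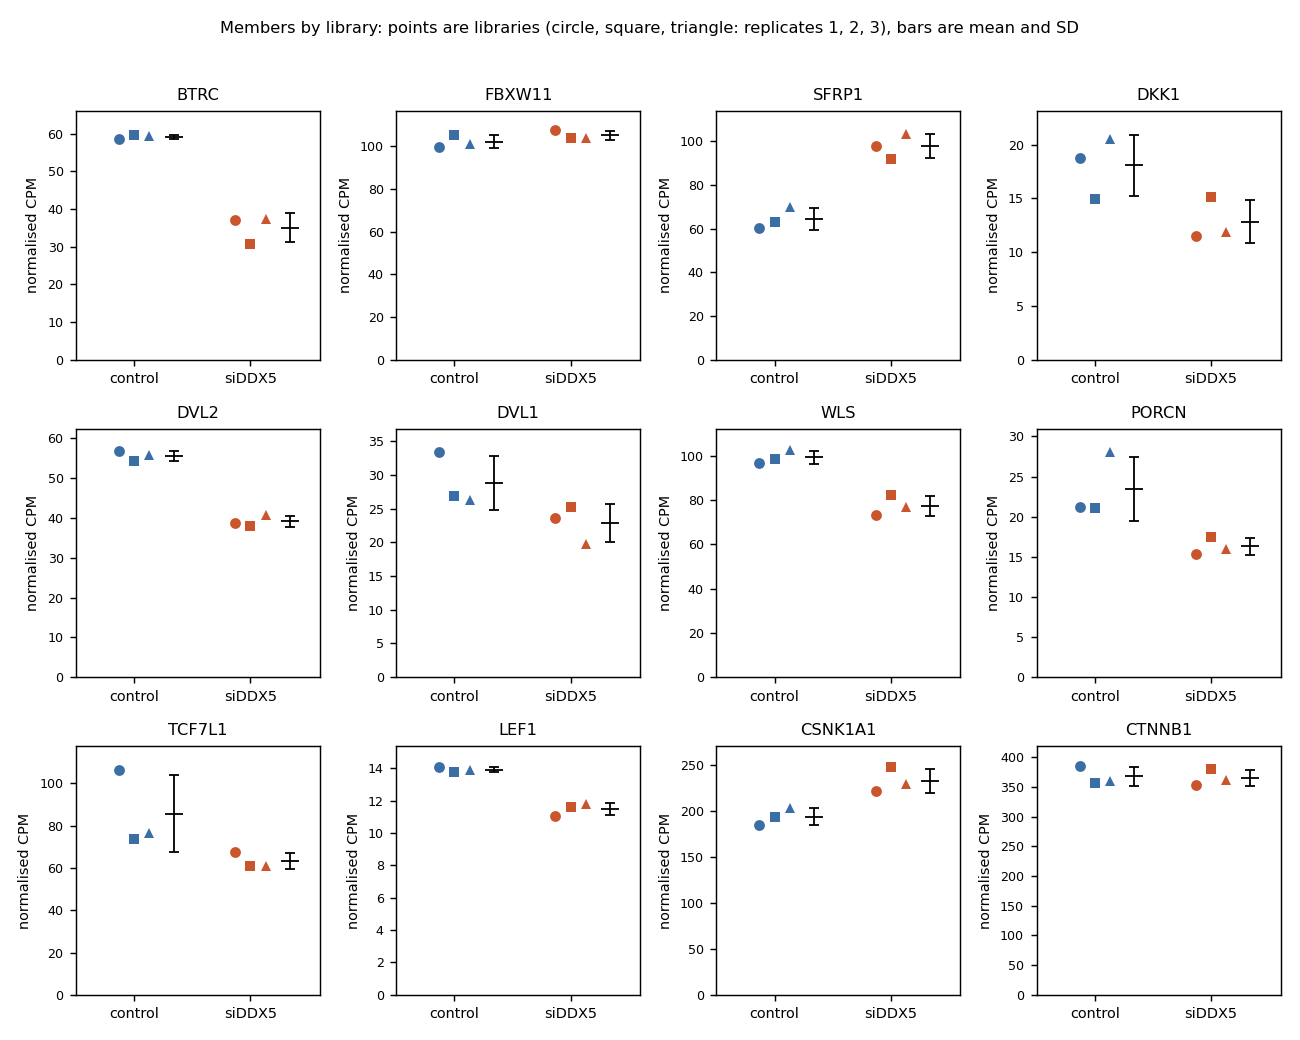
Normalised CPM of 12 of the genes by library (points; circle, square and triangle: replicates 1, 2 and 3), with the mean and SD of each group (n = 3; vertical axes start at 0). BTRC, DVL2, WLS, PORCN, DVL1, TCF7L1 and LEF1 have separate groups with siDDX5 lower, SFRP1 and CSNK1A1 with siDDX5 higher, and FBXW11, DKK1 and CTNNB1 overlap.

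None of the receptors passed the test without or with the block, and none of the 11 tested reached an unadjusted p under 0.05 without it in edgeR. The nearest were FZD4 and LRP5. FZD4 was at 17.8, 16.4 and 18.4 CPM in control and 15.6, 13.5 and 15.5 CPM in siDDX5 cells, with no overlap (log2 fold change -0.24, adjusted p = 0.526). LRP5 was at 76.4, 51.5 and 58.1 CPM in control and 56.8, 49.1 and 50.2 CPM in siDDX5 cells, with overlap (log2 fold change -0.25, adjusted p = 0.562). LRP5 rests on control replicate 1, without which its log2 fold change was -0.07.

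CTNNB1 was at 386, 357 and 361 CPM in control and 354, 380 and 363 CPM in siDDX5 replicates 1, 2 and 3. The groups overlapped, with means of 368 ± 15.6 and 365 ± 13.3 CPM (SD, n = 3) and a log2 fold change of -0.01 with a standard error of 0.10 (adjusted p = 0.983, edgeR). These are mRNA levels, and the amount of beta-catenin protein, on which BTRC acts, was not measured. Of its partner factors, TCF7L1 was at 106, 73.6 and 76.6 CPM in control and 67.6, 60.9 and 61.0 CPM in siDDX5 cells. Control replicate 1 stood far above the others, the groups were separate in CPM but not in TPM, and the log2 fold change of -0.44 did not pass (adjusted p = 0.307). It was -0.245 without control replicate 1, and -0.263 and -0.269 in the limma-trend fits on TPM. LEF1 was at 14.1, 13.8 and 13.9 CPM in control and 11.1, 11.6 and 11.8 CPM in siDDX5 cells, a small difference without overlap (log2 fold change -0.28, standard error 0.13, adjusted p = 0.454). TCF7L2, at a mean of 36.3 TPM, and TCF7, at 2.88 TPM, overlapped between groups. TCF7L1 made up 43.77, 37.04 and 43.3% of the summed TPM of TCF7, TCF7L1, TCF7L2 and LEF1 in control replicates 1, 2 and 3. In siDDX5 replicates it made up 38.39, 38.3 and 42.25%, with overlap (exact two-sided permutation p = 0.6).

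The other 21 genes tested had log2 fold changes between -0.34 and 0.32, and their smallest adjusted p in edgeR was 0.585. For none of them was the siDDX5 group separate from the control group in CPM.

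Genes of the pathway outside the 42 were counted in 3 lists. Of 82 other Wnt pathway genes, 54 were tested and 0 passed in edgeR, while 2 had an unadjusted p under 0.05 with higher and 5 with lower levels (13% of the 54, near the 11.4% of all genes), at a median log2 fold change of -0.04. With the block 1 passed, the planar polarity cadherin CELSR2, with 91.9, 57.1 and 90.6 CPM in control and 57.0, 37.7 and 57.6 CPM in siDDX5 replicates 1, 2 and 3. Its groups overlapped, but siDDX5 was lower within each replicate number (log2 fold change -0.65, adjusted p = 0.288 without the block and 0.00863 with it). Of 38 described Wnt target genes, which share NOTUM and APCDD1 with the first list, 29 were tested and 0 passed, while 3 had an unadjusted p under 0.05 with higher and 1 with lower levels (13.8% of the 29), at a median of 0.10. With the block 2 passed, 1 in each direction. EPHB2, an ephrin receptor, had 70.0, 57.4 and 56.8 CPM in control and 38.2, 39.7 and 31.5 CPM in siDDX5 cells (log2 fold change -0.75, adjusted p = 0.0680 without and 0.00928 with the block). TNFRSF19, a receptor of the TNF family, had 21.8, 20.0 and 33.2 CPM in control and 35.9, 36.6 and 58.6 CPM in siDDX5 cells (log2 fold change 0.80, adjusted p = 0.249 without and 0.00646 with the block). In the blocked fit, 9 target genes with higher and 2 with lower levels reached an unadjusted p under 0.05 (37.9%, beside 20.5% of all genes), and of the 29 fold changes without the block 20 were above 0 and 9 below it. Replicate 3 was the highest of its group for TNFRSF19 in both groups. Of 20 partners of the SCF ligase and other F-box genes, all were tested and 0 passed without or with the block, while 0 had an unadjusted p under 0.05 with higher and 1 with lower levels (5% of the 20), at a median of 0.11. Their groups did not overlap for 7 genes with siDDX5 higher and 1 with siDDX5 lower (40% of the 20, beside 18.1% of all genes). That share was 16.7% for the other Wnt pathway genes and 17.2% for the Wnt target genes. In the blocked fit, 15% of the 20 and 18.5% of the other Wnt pathway genes reached an unadjusted p under 0.05, beside 20.5% of all genes.

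Transcript usage could be tested for 29 of the 42 genes. In edgeR 0 passed without or with the block, where 170 of 10704 genes (1.59%) passed without it and 129 (1.21%) with it. At an unadjusted p under 0.05 there were 2 of the 29, AXIN2 (0.0292) and CTNNB1 (0.0333), where 576 of all genes (5.38%) reached that mark. Without siDDX5 replicate 2, CTNNB1 and WNT5A passed among 250 of 11024 genes. Without siDDX5 replicate 1, 453 of 10991 genes passed, with 0 of the 29 among them. An unadjusted p under 0.05 in edgeR was then reached by 3 of the 29, where 1168 of the 10991 genes reached it. Of 158 single transcripts of these genes 0 passed, and of all 61169 transcripts tested 0 passed too, without or with the block. An unadjusted p under 0.05 was reached by 20 of the 158, where 4333 of the 61169 transcripts (7.08%) reached it.

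Promoters of 27 of the 42 genes, 37 sequences of 300 bases, were matched in RefSeq on GRCh38.p14. The TCF and LEF word ATCAAAG, searched on both strands (reverse CTTTGAT), occurred in 0 of these 27 genes' promoters and in 919 of all 35116 promoters (2.62%). This says only that these letters are not in those windows.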

How the data were processed

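Per the labels, messenger RNA libraries of 6 Rh30 cultures were made with a stranded TruSeq kit, and the titles gave each library's group and replicate number. The submitters' processing notes name bcl2fastq 2.20, FastQC 0.11.8, cutadapt 1.11 and kallisto 0.46.0 with GRCh38, without their settings, so whether counting used strand is not known. Each deposited table gives an estimated count per transcript, not normalized, and a TPM value, which the authors' quantifier had scaled for transcript length and library total. The transcript annotation is not given in the sources used here. Of 188753 transcripts, 169797 (90.0%) were joined to genes by identifier in GENCODE release 29, 15315 by symbol and 857 by position, and 2784 were left out. Between 99.58% and 99.62% of the estimated counts of a library were joined.

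Each gene's estimated counts were added up and rounded to whole numbers. In edgeR 4.0.16 (R 4.3.3), genes that passed filterByExpr were fitted together by glmQLFit after TMM scaling, and the group, the only term, was tested by glmQLFTest. A call needs a Benjamini-Hochberg adjusted p under 0.05. CPM are TMM-normalised for genes and not for transcripts. Transcript usage was tested with diffSpliceDGE (Simes). SD values are between replicates, and the edgeR standard errors also take in variation between libraries of a group. The floors reflect counting error only. Assigning reads to transcripts adds further uncertainty, which was not modelled for any of these values. The alternatives were DESeq2 1.42.0 (its size factors, and its Wald test), no filter beyond 1 count, a mean of at least 50 counts, limma-trend (limma 3.58.1) on log2(TPM + 1) and log2(TPM + 0.1) at a mean TPM of at least 1, the primary assembly only, the replicate number as a block, and leaving out each library. The scripts were tested on simulated data.

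The titles give the groups the same replicate numbers and do not say that a number marks a shared day or batch. The deviations of same-numbered libraries from their group means correlated at 0.21, 0.27 and 0.58 over 15223 genes for replicates 1, 2 and 3. On this ground the numbers were taken to pair the libraries, and the blocked value is given where it changes a call. No such correlation is given for libraries of unlike number. Deviations within a group cancel out, so likeness of the replicate 3 libraries alone could raise the values of replicates 1 and 2. Blocked results thus rest on an assumed pairing. The block lowered the biological coefficient of variation from 15.7% to 10.2%.

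The 42 genes and the lists were chosen with earlier results of these data known. A fold change with its test is given for DDX5, for each of the 42 with an unadjusted p under 0.05 without or with the block, and for BTRC, FBXW11, CTNNB1, AXIN2 and LEF1. Of the other lists, genes called without or with the block are named, and WNT9A and WNT3 for their level. The 2 most abundant BTRC transcripts are also named. Exons and coding sequences come from GENCODE release 29 on GRCh38, where ENST00000370187 has another version than in the tables. Aligned identities were computed with Biopython 1.88.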

Additional observations from a re-analysis of the deposited data

How the results depend on the processing

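Of all 15223 genes tested, 25 were called in edgeR, 323 with the DESeq2 Wald test and 395 in edgeR with the replicate block. Without the filter 136 of 24618 were called, and 1 of 14871 with each limma-trend fit. In the limma-trend fits, 1272 (pseudocount 1) and 1251 (pseudocount 0.1) had an unadjusted p under 0.05. Of the 42 genes, 1 (BTRC) was called by edgeR, 3 by DESeq2 (BTRC, DVL2 and SFRP1), 2 without the filter (BTRC and SFRP1), 3 with the replicate block (BTRC, DVL2 and SFRP1) and 0 by limma-trend, where 7 had an unadjusted p under 0.05 with either pseudocount. Without 1 library, 0 to 15 of all genes and 0 of the 42 were called by edgeR, and such fits hold fewer samples. Of the 42 genes these fits tested 38 or 39, with 7 to 9 at an unadjusted p under 0.05. Of the 15392 to 15656 genes tested in all, 1246 to 2043 reached that mark. Without control replicate 1 or siDDX5 replicate 1, 0 of all genes were called.

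Of the other Wnt pathway genes (0 called), 1 was called with the replicate block. Of the Wnt target genes (0 called), 2 were called by DESeq2, 1 without the filter and 2 with the replicate block. The DDX5 fold change was -1.443 (adjusted p = 0.08497) and -1.445 (adjusted p = 0.09275) in the limma-trend fits, and -1.537 to -1.302 without 1 library, where it did not pass without control replicate 1, siDDX5 replicate 1 or siDDX5 replicate 2 (adjusted p = 0.0954, 0.06516 and 0.05298). Genes near 0 changed sign. AXIN2 ran from -0.094 to 0.087 without 1 library, above 0 only without control replicate 3. FBXW11 was at -0.023 in both limma-trend fits. CTNNB1 ran from -0.039 to 0.031 without 1 library, and was at 0.031, 0.014 and 0.005 without control replicate 1, siDDX5 replicate 1 and siDDX5 replicate 3. The number of genes with changed usage (170) was 395 without the filter, 41 at a mean of at least 50 counts and 219 to 453 without 1 library, 453 being without siDDX5 replicate 1. Of the 42 genes, 0 to 2 had changed usage without 1 library, 2 being without siDDX5 replicate 2. The causes were not tested.

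In the fit with the replicate block no other call among the 42 genes or DDX5 changed. SFRP1 was called in 3 and DVL2 in 2 of the 14 alternatives, BTRC in 6, with the same sign in all 14. With DESeq2 size factors in edgeR the median of all genes moved by 0.007 and 0 of the 42 changed sign. The 5 genes left out by the filter had at most 18.02 estimated counts in a library.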
